A study of Arabidopsis thaliana with 134 samples.

Results

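The ATG8 genes of Arabidopsis thaliana encode small ubiquitin-like proteins of autophagy. All 9 of them, ATG8A (AT4G21980), ATG8B (AT4G04620), ATG8C (AT1G62040), ATG8D (AT2G05630), ATG8E (AT2G45170), ATG8F (AT4G16520), ATG8G (AT3G60640), ATG8H (AT3G06420) and ATG8I (AT3G15580), were taken by gene identifier from a table of 28775 genes. Transcripts were measured by poly(A) RNA-seq in whole seedlings of 65 recombinant inbred lines (RILs) bred from the accessions Tnz-1 and Ws-2, and in both parents. A RIL is an inbred line that carries a fixed mosaic of its parents' genomes. Every line and every parent gave 1 dark library and 1 light library. Seedlings of about 50 seeds per cluster were stratified for 4 days and raised on 3% sucrose at 22 °C under 8 h of light and 16 h of darkness until day 12. All were harvested at zeitgeber time (ZT) 10 h, the dark group 2 h after lights-off at ZT 8 h and the light group after 2 h of added light. The labels name no mutation, transgene or drug. The treatments occupied separate cabinets, 2 in total, so light and cabinet cannot be told apart in any value below. The sugar in the medium was common to every group.

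Autophagy carries cytoplasm to the vacuole inside a double membrane, the autophagosome. The protease ATG4 cuts ATG8 behind a glycine near its end, and the enzymes ATG7 and ATG3, helped by ATG5, ATG12, ATG10 and ATG16, join that glycine to the lipid phosphatidylethanolamine. Membrane-bound ATG8 then recruits cargo receptors, and in plants the pathway recycles nutrients during darkness, sugar shortage and senescence. ATG8A to ATG8G form one plant clade, and ATG8H and ATG8I form the other.

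The clades can be seen at the end of the coding sequence, which is shown for each member because it holds the glycine that is joined to the lipid. The reference genome was read, not the genomes of Tnz-1 and Ws-2, whose bases may differ. Sequences and positions are from RefSeq for TAIR10.1, 5′ to 3′ on the coding strand, with the glycine codon in capitals and the stop codon last.
ATG8A: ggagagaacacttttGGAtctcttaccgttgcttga
ATG8B: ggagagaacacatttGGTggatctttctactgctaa
ATG8C: ggagagaacacctttGGTttggtttaa
ATG8D: ggtgagaacacgttcGGGatcttcttctaa
ATG8E: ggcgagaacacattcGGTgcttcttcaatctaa
ATG8F: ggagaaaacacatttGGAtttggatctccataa
ATG8G: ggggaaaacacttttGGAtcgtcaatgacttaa
ATG8H: accgagaaaactttcGGCtaa
ATG8I: agtgagaaaacctttGGTtga
Between the glycine and the stop there were 5 codons in ATG8A and ATG8B, 4 in ATG8E, ATG8F and ATG8G, 3 in ATG8D and 2 in ATG8C. ATG8H and ATG8I had 0, so their reading frame ends on the glycine itself.

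On TAIR10.1, ATG8A lies at chr4:11655562-11657034 on the plus strand, ATG8B at chr4:2328442-2330590 on the minus strand and ATG8F at chr4:9306339-9308538 on the minus strand. ATG8C lies at chr1:22932760-22934549 (plus), ATG8D at chr2:2082894-2084905 (minus) and ATG8E at chr2:18624264-18625791 (plus). ATG8G lies at chr3:22415751-22417548 (plus), ATG8H at chr3:1954990-1956397 (minus) and ATG8I at chr3:5273526-5275095 (minus). All are annotated as protein-coding, with 5 to 7 exons in the transcript used here. ATG8A overlaps AT4G21990 and ATG8I overlaps AT3G15578, each on the opposite strand. The library kit kept strand per the labels, but whether counting used it is not given in the sources used here, so these 2 values are less certain. Pairs of coding sequences were 49.6% (ATG8D and ATG8I) to 78.3% (ATG8B and ATG8C) identical. Only ATG8A and ATG8B shared any run of 31 bases with another gene's transcripts, 23 runs with each other, which were 2.44% of those of ATG8A and 1.79% of those of ATG8B.

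Libraries listed 7999 to 10459 of the 28775 genes at 0, and read depth is unknown because only TPM values (an abundance scaled to transcript length and to the library's total) were given. The green-tissue markers RBCS1A, LHCB1.3 and LHCA1 were present in every RIL library, while LHCB2.1 had a median of 0.49 TPM in the dark and was listed at 0 in 9 RIL libraries. All 5 root markers (PIN2, PYK10, CASP1, CASP2, COBL9) were above 0 in every library. The summed seed storage transcripts (CRA1, CRU2, CRU3, SESA3) varied widely, from 0.97 to 13570 TPM in dark RIL libraries and from 0.45 to 6886 TPM in light ones. Their part in the values below was not tested. In whole seedlings, fewer cells of a type and less RNA per cell cannot be told apart.

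To ask how each isoform stood in the dark and after extended light, the 65 dark and 65 light RIL libraries were compared. ATG8E fell in the light, ATG8F fell by a smaller amount, ATG8G and ATG8H rose, and 4 other members did not pass the test. Under limma with Benjamini-Hochberg adjustment over 18111 genes, 4 of the 8 members tested passed an adjusted p of 0.05, 2 in each direction. Over all genes tested 61.6% passed, 36.1% as higher and 25.5% as lower in the light, so the share of ATG8 members that passed was not above the background. No member reached an absolute log2 change of 1 as well, which 5.48% of all genes did (2.66% higher, 2.83% lower). With the line as a block, the same 4 members passed, against 76.8% of all genes. Changes are on the log2(TPM + 1) scale, light minus dark, which understates those of low genes. The median change was -0.01 over the 8 members and 0.05 over all genes tested. The p-values measure the spread between lines, since nothing states repeat sowings of a line.

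ATG8E, which is widely used as a fluorescent marker of autophagosomes, ran from 90.5 to 224.7 TPM in the dark with a median of 166.2, and from 50.1 to 169.8 TPM in the light with a median of 92.7. The groups overlapped: 31 of the 65 light libraries were below the lowest dark library and 34 lay inside the dark range. The mean fell from 166.7 ± 24.9 to 96.7 ± 25.4 TPM (SD, n = 65 lines each), so that light libraries held 58.01% of the dark mean. The log2 change was -0.81 (SE 0.0543, limma adjusted p 8.99e-29), and 62 of 65 lines went down. By absolute change ATG8E ranked 1483 of the 18111 genes.

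The 3 lines that went the other way were line 48, from 90.5 to 140.0 TPM, line 31, from 157.9 to 169.8 TPM, and line 58, from 138.4 to 139.8 TPM. Line 48 was the lowest dark library for ATG8E, whereas line 31 was the highest light library. With 1 library per line and condition, these lines cannot be tested singly.

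ATG8F ran from 120.8 to 226.6 TPM in the dark with a median of 168.9, and from 75.95 to 282.4 TPM in the light with a median of 143.1. Light libraries reached beyond the dark ones on both sides, 14 below the lowest and 2 above the highest. Its mean fell from 169.5 ± 23.9 to 149.2 ± 37.8 TPM (SD, n = 65 each), and 46 of 65 lines went down. The log2 change was -0.21 (SE 0.0497, limma adjusted p 0.000103).

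ATG8H, of the clade whose reading frame ends on the glycine, ran from 8.70 to 41.97 TPM in the dark with a median of 21.9, and from 10.2 to 49.8 TPM in the light with a median of 28.8. The groups overlapped almost fully, and 4 light libraries were above the highest dark one. Its mean rose from 21.4 ± 6.13 to 29.4 ± 8.58 TPM (SD, n = 65 each), with 58 of 65 lines up. The log2 change was 0.44 (SE 0.0740, limma adjusted p 7.64e-08). The 7 lines that went down were lines 1, 3, 6, 26, 54, 59 and 66, by at most 0.27 on the log2 scale (-0.27 in line 3).

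ATG8G ran from 13.2 to 32.9 TPM in the dark with a median of 22.9, and from 16.2 to 60.9 TPM in the light with a median of 28.1. Here 13 light libraries exceeded every dark one and none fell below them. Its mean rose from 23.1 ± 5.02 to 28.6 ± 7.02 TPM (SD, n = 65 each), with 52 of 65 lines up and a log2 change of 0.29 (SE 0.0546, limma adjusted p 1.28e-06). The members that rose were thus 1 of each clade, and both members that fell belonged to the clade of ATG8A to ATG8G. Of the members tested, only ATG8H and ATG8I were of the other clade, so the split is not read as a clade pattern.

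The remaining members stayed near 0 change on average, with lines on both sides. ATG8A had 89.2 ± 13.2 TPM in the dark and 92.5 ± 17.1 TPM in the light (SD, n = 65 each; log2 change 0.04, SE 0.0422, limma adjusted p 0.394), higher in 32 lines and lower in 33. ATG8B had 66.3 ± 20.1 and 66.3 ± 18.02 TPM, with a log2 change of 0.01 (SE 0.0778, limma adjusted p 0.895) and 33 lines higher. ATG8D had 20.6 ± 6.17 and 20.9 ± 7.56 TPM, with a log2 change of -0.03 (SE 0.0930, limma adjusted p 0.830) and 32 lines higher.

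ATG8I, the other member without codons behind the glycine, had 122.3 ± 14.2 TPM in the dark and 119.2 ± 22.5 TPM in the light (SD, n = 65 each). Its log2 change was -0.05 (SE 0.0396, limma adjusted p 0.276), lower in 40 lines. After median-of-ratios scaling of the TPM columns it passed, at -0.09 (limma adjusted p 0.0363). That scaling shifted the median change of all genes by -0.03.

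ATG8C was barely detected and, with a mean below 1 TPM, was not tested. It had a median of 0.42 TPM in the dark (0 to 4.48) and 0.69 TPM in the light (0 to 2.74). The gene was listed at 0 in 9 dark and 10 light libraries, and 40 lines were higher, 22 lower and 3 equal. Without the filter on low values its log2 change was 0.21 (SE 0.0858, limma adjusted p 0.0358), a test that rests on values under 1 TPM in most libraries.

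**Figure D1:**
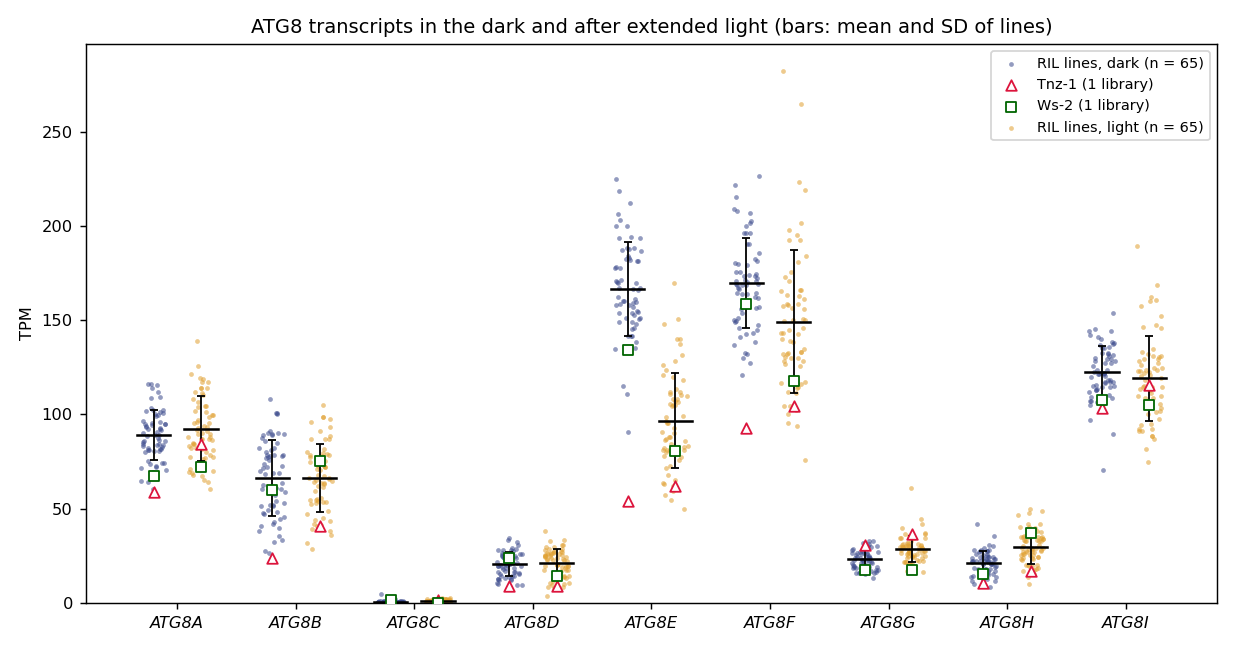
TPM of each ATG8 gene (y axis) in 65 dark (blue) and 65 light (orange) RIL libraries, with horizontal bars for the mean, whiskers for the SD and open symbols for the 1 library per condition of Tnz-1 (triangles) and Ws-2 (squares). ATG8E and ATG8F stand at about the same level in the dark, at 166.7 and 169.5 TPM, and apart in the light, at 96.7 and 149.2 TPM.

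**Figure D2:**
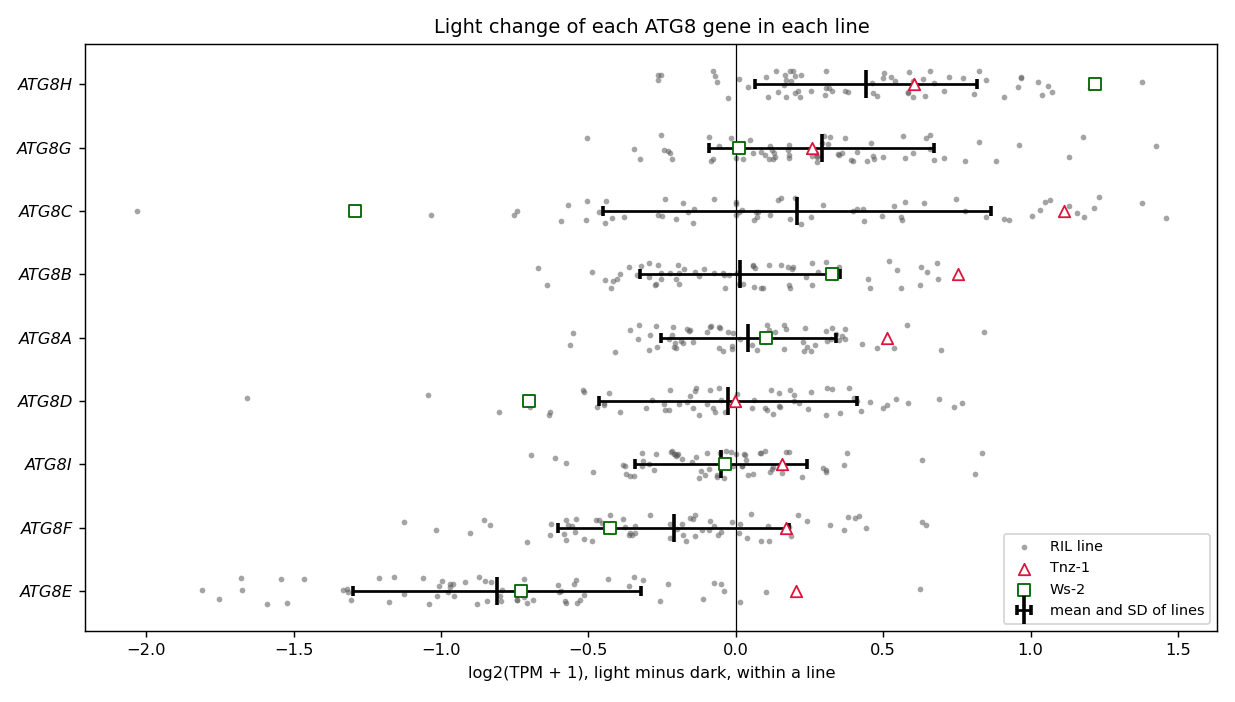
Light minus dark difference in log2(TPM + 1) within a line (x axis) for each ATG8 gene (y axis), with grey points for 65 lines, black bars for the mean and SD, and open symbols for the parents. ATG8E lies left of 0 in 62 lines, ATG8H right of 0 in 58 and ATG8G in 52, while the points of ATG8A, ATG8B and ATG8D lie evenly on both sides.

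The members were next set in order of level, which TPM allows because it is scaled to length. Neighbours were compared within lines by two-sided sign-flip permutation tests with 100000 resamples, adjusted over 24 pairs; the smallest p they can give is 1e-05. In the dark the order was ATG8F, ATG8E, ATG8I, ATG8A, ATG8B, ATG8G, ATG8H, ATG8D and ATG8C. ATG8F and ATG8E did not differ beyond their spread (log2 difference 0.03, ATG8F higher in 34 of 65 lines, adjusted permutation p 0.460), nor did ATG8G and ATG8H (0.14, p 0.0555) or ATG8H and ATG8D (0.06, p 0.553). The other 5 steps all had an adjusted permutation p of 2e-05, the largest being ATG8D over ATG8C (3.81) and ATG8B over ATG8G (1.44).

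In the light the order became ATG8F, ATG8I, ATG8E, ATG8A, ATG8B, ATG8H, ATG8G, ATG8D and ATG8C. ATG8E had moved below ATG8I, which exceeded it by 0.32 on the log2 scale in 57 of 65 lines (adjusted permutation p 2e-05). It stood level with ATG8A, with a difference of 0.04 (adjusted permutation p 0.391). ATG8H and ATG8G were also not told apart (0.01, adjusted permutation p 0.800). The member with the highest TPM in a dark library was ATG8F in 33 lines, ATG8E in 31 and ATG8I in 1, whereas in the light it was ATG8F in 61 lines and ATG8I in 4.

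Of the light changes themselves, that of ATG8F exceeded that of ATG8E by 0.60 on the log2 scale in 65 of 65 lines (adjusted permutation p 2e-05). So on the log2 scale, though not always in TPM, ATG8E lost more, or gained less, than ATG8F in each line. This included the 3 lines in which the level of ATG8E went up. The change of ATG8I exceeded that of ATG8F by 0.16 (45 of 65 lines, adjusted permutation p 0.000185), and that of ATG8H exceeded that of ATG8G by 0.15 (41 of 65 lines, adjusted permutation p 0.0261). Neighbours from ATG8G down to ATG8I did not differ beyond their spread, with adjusted permutation p from 0.0801 to 0.699, but the barely detected ATG8C stood between ATG8G and ATG8A in this order. With a pseudocount of 0.1 ATG8C moved up, and ATG8G then exceeded its new neighbour ATG8A by 0.26 in 45 of 65 lines (adjusted permutation p 1.85e-05).

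Summed over all 9 members, dark libraries held 679.6 ± 68.5 TPM and light libraries 603.6 ± 101.3 TPM (SD, n = 65 each), and 50 of 65 lines were lower in the light. Within that sum the share of ATG8E went from 24.5% ± 2.81 to 15.8% ± 2.15 (SD, n = 65 each). The share of ATG8F was 24.9% in the dark and 24.5% in the light. The shares of ATG8A (13.1% to 15.4%), ATG8B (9.67% to 11.2%), ATG8I (18.1% to 19.8%), ATG8H (3.12% to 4.91%), ATG8G (3.41% to 4.74%) and ATG8D (3.06% to 3.54%) were all larger in the light. Shares add to a fixed total, so the drop in ATG8E alone raises the others.

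The upstream sequences of ATG8E, with the largest decrease, and ATG8H, with the largest increase among the members tested, are shown over the 250 bases before the gene start. They were read from TAIR10.1 on the gene's strand, not from Tnz-1 or Ws-2, whose bases may differ. Capitals mark matches to CACGTG (a G-box core), AAAATATCT (the evening element), TATCCA (a sugar response element known from rice) or GATAAG (an I-box core) on either strand.
ATG8E (chr2:18624014-18624263, plus): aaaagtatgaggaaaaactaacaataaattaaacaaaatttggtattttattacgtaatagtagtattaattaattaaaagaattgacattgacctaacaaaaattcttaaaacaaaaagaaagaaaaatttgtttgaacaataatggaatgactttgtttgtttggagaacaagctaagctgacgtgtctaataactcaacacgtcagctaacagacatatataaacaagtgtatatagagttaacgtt
ATG8H (chr3:1956398-1956647, minus): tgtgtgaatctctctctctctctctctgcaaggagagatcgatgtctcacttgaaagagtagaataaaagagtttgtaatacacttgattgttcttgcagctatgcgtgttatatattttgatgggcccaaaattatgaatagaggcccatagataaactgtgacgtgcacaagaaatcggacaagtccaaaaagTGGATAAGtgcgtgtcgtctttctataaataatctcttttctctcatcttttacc
ATG8E held none of the 4 motifs in this window. ATG8H held 1 run, TGGATAAG, in which GATAAG overlaps the reverse complement of TATCCA, 55 bases before the gene start. Across the family TATCCA was present in 4 of 9 members (ATG8B, ATG8D, ATG8H and ATG8I; 13.6% of 27443 promoters), with 4 copies in ATG8B, and GATAAG in 2 of 9 (ATG8G and ATG8H; 12.3%). CACGTG and AAAATATCT were in 0 of 9, against 6.49% and 2.36% of promoters. A match is a description of the letters, and the lack of one says nothing of a factor.

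Line-to-line differences were then examined by an F-test of the line with the treatment in the model, and their size by the intraclass correlation between a line's 2 libraries. Lines differed in ATG8B, ATG8D and ATG8H, whose levels in the dark carried over to the light. ATG8G and ATG8A passed with lower correlations, and that of ATG8E was below 0, which this test, made for lines that are alike in both conditions, does not assess. In all, 5 of 8 members passed an adjusted p of 0.05 by limma's F-test, against 83.9% of all genes tested. The median intraclass correlation was 0.25 over the members and 0.49 over all genes.

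ATG8B had an intraclass correlation of 0.71 (limma adjusted p 6.41e-12) and ranged 26.7 to 108.2 TPM among dark lines. ATG8D had one of 0.66 (limma adjusted p 4.03e-10), with light levels from 3.75 TPM in line 50 to 38.1 TPM in line 48. ATG8H had one of 0.60 (limma adjusted p 2.96e-08), and line 55 was its lowest in both conditions, at 8.70 TPM in the dark and 10.2 TPM in the light.

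ATG8G (0.25, limma adjusted p 0.0167) and ATG8A (0.25, limma adjusted p 0.0201) passed with smaller values, and neither passed after median-of-ratios scaling (limma adjusted p 0.0610 and 0.0929) or among lines within ranges of line number (0.104 and 0.0986). ATG8I (0.17, limma adjusted p 0.0773) and ATG8F (0.05, limma adjusted p 0.291) did not pass. For ATG8E the value was -0.24 (limma adjusted p 0.960).

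**Figure D3:**
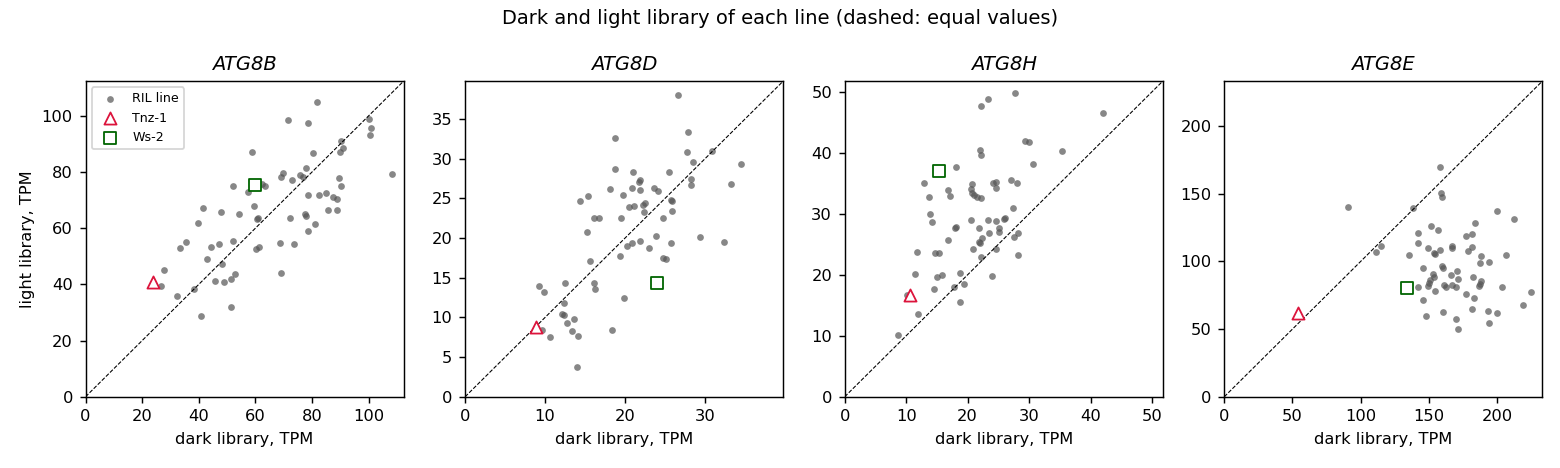
TPM in the dark library (x axis) and the light library (y axis) of each of 65 lines (grey), Tnz-1 (triangle) and Ws-2 (square), for the members with the highest intraclass correlations (ATG8B, ATG8D, ATG8H) and for ATG8E. Points of ATG8B and ATG8D lie on both sides of the dashed line of equal values. Those of ATG8H lie mostly above it (58 of 65 lines), and those of ATG8E mostly below it (62 of 65 lines, intraclass correlation -0.24).

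The genes whose pattern was most like each member's were sought by Pearson's r over the 130 RIL libraries after the treatment means were removed, and are given as a description, since libraries of a line share its genome and all values in a library share its scaling. For the members with strong line differences, the closest genes lay on the member's own chromosome, 3 of 3 for ATG8B, ATG8D and ATG8H. The count was 1 of 3 for ATG8F and for ATG8G, and 0 of 3 for ATG8A, ATG8E and ATG8I. The same count was not made for genes outside the family, so these counts have no background beside them and are not read as a trait of the members. ATG8D was closest to AT2G05830 (r = 0.834), GRP-3 (0.822) and PAA2 (0.804), which lie 0.147, 0.0573 and 0.151 Mb away. ATG8B was closest to UMAMIT20 (r = 0.841, 2.91 Mb away), UBQ10 (0.802, 0.39 Mb) and AT4G07990 (0.798, 2.5 Mb). ATG8H was closest to APEM9 (r = 0.654), WRKY39 (0.646) and AT3G09850 (0.642), at 1.35, 0.688 and 1.07 Mb.

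For ATG8E the closest genes were on other chromosomes, AT5G22920 (r = 0.732), AT3G51730 (0.725) and AT1G28260 (0.721). AT3G51730, annotated with a saposin B domain, was also the closest to ATG8F (r = 0.805), followed by AT4G13530 (0.798) and AT3G13062 (0.731). ATG8A was closest to AT1G53180 (0.721), TRX5 (0.698) and STR18 (0.697), ATG8G to RAB8 (0.614), ATARD2 (0.585) and AT5G55860 (0.582), and ATG8I to HMGB3 (0.620), ERA1 (0.618) and SLT1 (0.617). Over the RIL and parental libraries together, with the treatment left in, the closest to ATG8E were AT3G15450 (r = 0.906), BGAL4 (0.902) and SEN1 (0.899), the last a dark-inducible, senescence-associated gene. These values include the difference between the treatments. In the same search the closest were STR18 to ATG8A (0.705), UBQ10 to ATG8B (0.803), AT2G05830 to ATG8D (0.832) and AT3G51730 to ATG8F (0.833). They were AT4G35220 to ATG8G (0.669), AT3G10910 and AT3G10912 to ATG8H (0.737 each) and ERA1 to ATG8I (0.615).

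Among the members themselves, the highest r over 130 libraries was between ATG8E and ATG8F (0.685) and the lowest between ATG8D and ATG8H (-0.277). For the light change over 65 lines, ATG8E and ATG8F again had the highest r (0.790), followed by ATG8A and ATG8B (0.709), and 27 of 28 pairs were above 0. The 2 libraries of a line enter every pair, so these values share sources and are given without a test.

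The spread between lines was compared between conditions through the absolute deviation from the group median. ATG8E lines were less alike in the light, with a mean deviation of 0.31 against 0.17 on the log2 scale in the dark (difference 0.14, SE 0.0328, limma adjusted p 0.00941). ATG8F lines were too, at 0.27 against 0.16 (difference 0.11, SE 0.0315, limma adjusted p 0.0432). These were 2 of 8 members, against 0.64% of all genes more spread in the light and 1.15% less spread. When deviations were taken within ranges of line number, neither passed, at 0.08 for ATG8E (limma adjusted p 0.227) and 0.07 for ATG8F (limma adjusted p 0.294). After median-of-ratios scaling ATG8E did not pass (0.09, limma adjusted p 0.150), and without lines 40 to 57 ATG8F did not (0.10, limma adjusted p 0.324).

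The light change differed with the range of line number for ATG8E, ATG8F, ATG8A and ATG8H. The labels do not call these ranges batches, so what they share beyond the number is not known. ATG8E changed by -1.28 ± 0.35 in lines 1 to 19 (SD, n = 17), -0.82 ± 0.42 in lines 21 to 39 (n = 16), -0.38 ± 0.41 in lines 40 to 57 (n = 16) and -0.73 ± 0.30 in lines 58 to 78 (n = 16), by limma's F-test an adjusted p of 2.29e-06. It went down in 17 of 17 lines of the first range and in 15 of 16 of each other range, so its direction was shared and its size was not. Both conditions contributed: mean dark levels were 182.5, 160.4, 150.7 and 172.1 TPM in that order, and mean light levels 75.6, 93.1, 114.4 and 104.9 TPM.

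ATG8F changed by -0.57 ± 0.30 (SD, n = 17) in lines 1 to 19, -0.08 ± 0.33 in lines 21 to 39, 0.03 ± 0.36 in lines 40 to 57 and -0.19 ± 0.31 in lines 58 to 78 (limma F-test, adjusted p 0.000158). Its decrease over all lines was thus largest in the first range, where 17 of 17 lines went down, and was not seen in lines 40 to 57, where 7 of 16 did. ATG8H was up in each range, by 0.25 ± 0.28, 0.48 ± 0.39, 0.67 ± 0.40 and 0.37 ± 0.32 (limma F-test, adjusted p 0.0360). ATG8A changed sign between ranges, at -0.18 ± 0.22, 0.17 ± 0.34, 0.14 ± 0.28 and 0.06 ± 0.21 (limma F-test, adjusted p 0.0102).

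These were 4 of 8 members, against 25.6% of all genes by this test. ATG8B (limma F-test, adjusted p 0.0507), ATG8D (0.0737), ATG8G (0.136) and ATG8I (0.242) did not pass, and ATG8B passed after median-of-ratios scaling (0.0237). Family sums went from 701 to 514 TPM in lines 1 to 19, from 635 to 595 TPM in lines 21 to 39, from 671 to 671 TPM in lines 40 to 57 and from 710 to 639 TPM in lines 58 to 78. The median summed seed storage transcripts in these ranges were 159.1, 579.1, 227.4 and 122.2 TPM in the dark and 501.6, 363.8, 158.8 and 156.4 TPM in the light, and their part in the difference was not tested.

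**Figure D4:**
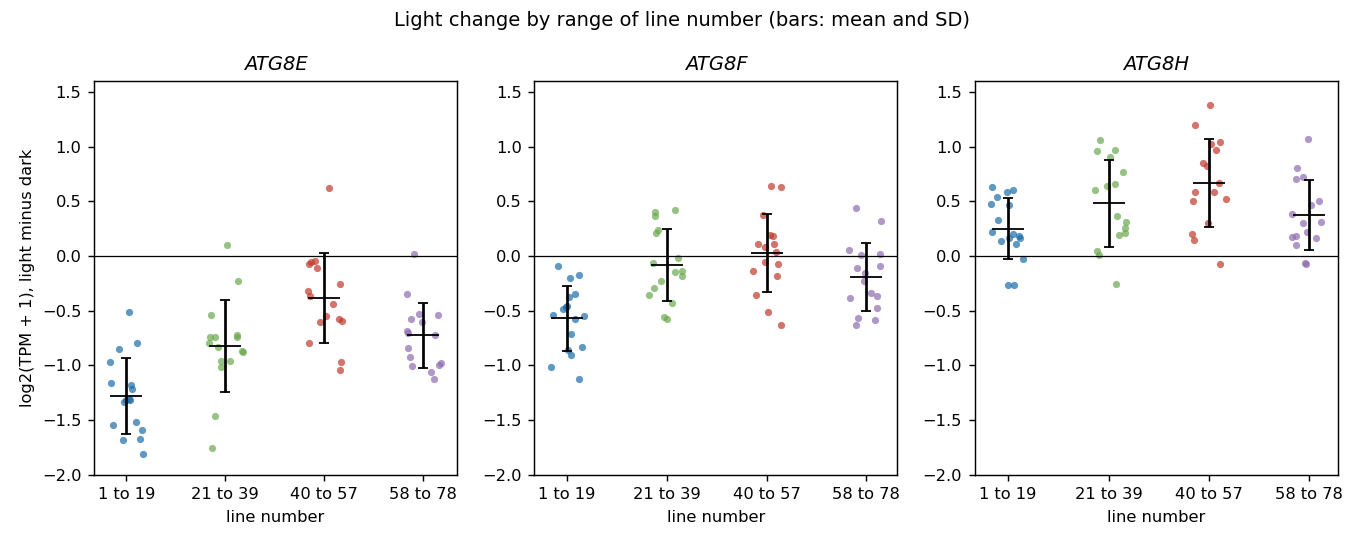
Light minus dark difference in log2(TPM + 1) (y axis) of ATG8E, ATG8F and ATG8H by range of line number (x axis), with a point per line and black bars for the mean and SD. ATG8E averages -1.28 in lines 1 to 19 and -0.38 in lines 40 to 57, ATG8F goes from -0.57 to 0.03 over the same ranges and ATG8H from 0.25 to 0.67.

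The parents had 1 library per condition and were described without a test. Tnz-1 had less ATG8 transcript in the dark than any RIL, 383.2 TPM summed over the family, and Ws-2 had 585.9 TPM, above 7 of 65 dark lines. Tnz-1 was below all 65 dark lines in 5 members. These were ATG8A (58.8 TPM), ATG8B (23.8 TPM), ATG8D (8.85 TPM), ATG8E (53.9 TPM) and ATG8F (92.8 TPM). In contrast its ATG8G, 30.5 TPM, was above 59 of 65 dark lines. The share of all genes below every dark line in Tnz-1 was not counted, so the 5 members have no background beside them. Outside the family, ATI1, a gene for an ATG8-interacting protein, was also below every dark line (87.1 TPM, lowest line 106.1 TPM). Of the other autophagy genes listed below, so were AT3G18770 (1.39 TPM, lowest line 8.96 TPM) and LST8-1 (4.43 and 25.32 TPM). ATI2 (17.79 and 19.99 TPM) and ATG18F (7.94 and 8.33 TPM) were too. ATG10 was not (10.45 TPM, lowest line 9.2 TPM). DSK2A (97.34 TPM, highest line 90.07 TPM) and RAPTOR1A (6.68 and 5.06 TPM) were above every dark line. The seed storage markers summed to 12110 TPM in the dark and 10234 TPM in the light in Tnz-1, against 298.6 and 195.7 TPM in Ws-2. The root markers summed to 372.9 and 387.9 TPM in Tnz-1 against 1210 and 1426 TPM in Ws-2, and the part of either in the parental difference was not tested.

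In extended light Tnz-1 held 471.3 TPM over the family and Ws-2 520.0 TPM, so by this sum the parents lay closer than in the dark. By member, ATG8B, ATG8D, ATG8E and ATG8F lay closer. ATG8G (log2 difference, Tnz-1 minus Ws-2, 0.76 in the dark and 1.01 in the light) and ATG8H (-0.49 and -1.10) lay further apart. The difference changed sign in ATG8A, ATG8C and ATG8I. ATG8E went from 134.1 to 80.5 TPM in Ws-2, a log2 change of -0.73 that sits inside the RIL distribution, and from 53.9 to 62.2 TPM in Tnz-1, a change of 0.20 that exceeds 64 of 65 lines. ATG8F went from 158.5 to 117.6 TPM in Ws-2 and from 92.8 to 104.5 TPM in Tnz-1. ATG8B was higher in the light in both, from 23.8 to 40.8 TPM in Tnz-1 and from 59.9 to 75.4 TPM in Ws-2, and the change in Tnz-1 (0.75) exceeded that of every line.

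ATG8H was higher in the light in both parents, from 10.7 to 16.7 TPM in Tnz-1 and from 15.3 to 37.0 TPM in Ws-2, whose change of 1.22 exceeded 64 of 65 lines. ATG8D was 8.85 and 8.84 TPM in Tnz-1 and 23.98 and 14.4 TPM in Ws-2. ATG8G was higher in Tnz-1 than in Ws-2 in both conditions, at 30.5 and 36.7 TPM against 17.5 and 17.7 TPM. ATG8I was 103.7 and 115.6 TPM in Tnz-1 and 107.9 and 105.2 TPM in Ws-2. ATG8A went from 58.8 to 84.2 TPM in Tnz-1 and from 67.3 to 72.3 TPM in Ws-2. ATG8C was 0.24 and 1.68 TPM in Tnz-1 and 1.45 TPM and listed at 0 in Ws-2.

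The other genes of autophagy were counted in 6 lists that hold 44 genes, of which 43 were tested. In the light 14 rose, 13 fell and 16 did not pass the adjusted p (limma), with a median log2 change of 0.01 and 0 past an absolute log2 change of 1. Genes of 5 lists passed in both directions and those of the TOR list in 1, and the shares that rose and fell stand beside 36.1% and 25.5% of all genes. These counts, and those of each list below, came from the fit without the line. With the line as a block, ATG3 (log2 change 0.18, limma adjusted p 6.95e-06) and VPS34 (0.26, 8.36e-12) also passed as higher. So did ATG9 (0.08, limma adjusted p 0.00653) and AT3G59950 (0.06, 0.0131), while RPN10 passed as lower (-0.09, 0.00210). The line test was passed by 33 of 43, against 83.9% of all genes.

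In the list of ATG8 conjugation, 1 of 9 rose and 4 fell. Its largest change was in ATG10, the enzyme that joins ATG12 to ATG5, which fell from 16.8 ± 3.33 to 11.2 ± 2.04 TPM (SD, n = 65 each; log2 change -0.55, limma adjusted p 7.12e-21), lower in 64 of 65 lines. ATG7, the activating enzyme, rose by 0.25 (limma adjusted p 1.09e-09). ATG3 and AT3G59950, also of this list, passed as higher only with the line as a block. ATG3 had an intraclass correlation of 0.99 and ran from 0.68 to 73.09 TPM among dark lines. In the list of the initiation kinase complex, 2 of 8 rose and 2 fell, the largest change being in AT3G61960, annotated as a protein kinase, which rose from 13.6 ± 2.92 to 22.6 ± 3.15 TPM (SD, n = 65 each; log2 change 0.71, limma adjusted p 5.23e-33) in 65 of 65 lines.

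In the list of ATG9, ATG2 and the lipid-binding ATG18 proteins, 4 of 9 tested genes rose and 2 fell, while ATG18E was not tested. ATG18H rose from 15.8 ± 3.21 to 29.5 ± 6.004 TPM (SD, n = 65 each; log2 change 0.86, limma adjusted p 1.02e-34) in 65 of 65 lines. In the list of the lipid kinase complex, 2 of 6 rose and 2 fell, the largest change being a decrease in AT1G77890 (-0.40, limma adjusted p 1.88e-08), lower in 57 of 65 lines.

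In the list of cargo receptors, 3 of 7 rose and 3 fell. ATI1, which encodes an ATG8-interacting protein, fell from 133.6 ± 11.1 to 78.035 ± 8.34 TPM (SD, n = 65 each; log2 change -0.77, limma adjusted p 4.45e-60) in 65 of 65 lines. Its dark and light ranges, 106.1 to 173.8 and 56.02 to 93.4 TPM, did not overlap, unlike those of ATG8E, whose change was of like size. In the list of the TOR complex, a kinase complex that restrains autophagy, 2 of 4 rose and 0 fell, the larger change being in RAPTOR1A, a TOR partner (0.44, limma adjusted p 5.75e-16), higher in 58 of 65 lines.

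**Figure D5:**
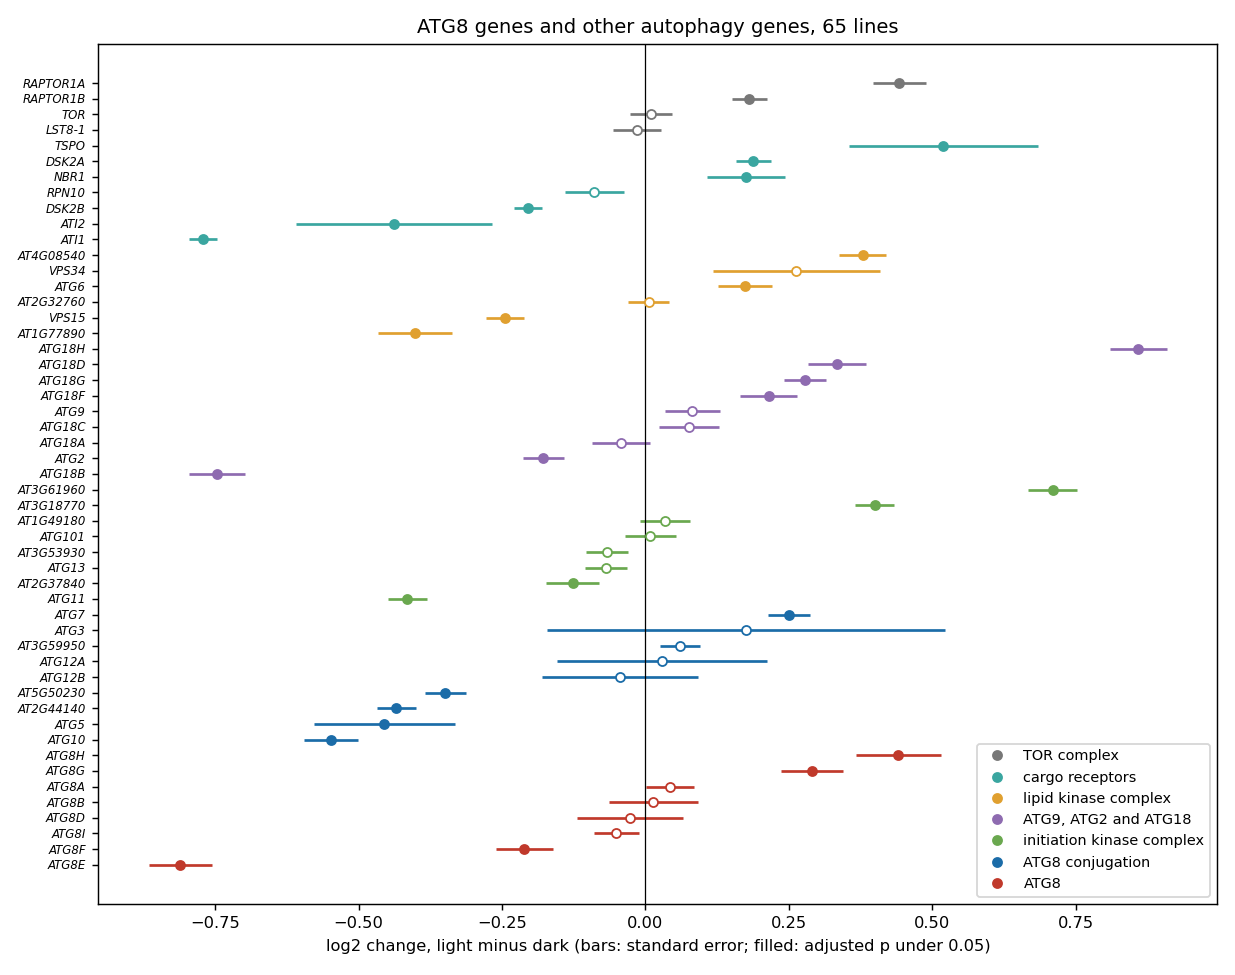
Log2 change, light minus dark, over 65 lines (x axis) of the 8 ATG8 genes tested and 43 other autophagy genes (y axis, coloured by list), with bars for the standard error and filled points for an adjusted p under 0.05 (limma). ATG8E (-0.81) lies at the lower end of the range of these genes, beside ATI1 (-0.77), and ATG18H (0.86) at the upper end.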

How the data were processed

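The authors deposited 1 table of TPM for 28775 genes and each column summed to between 999999 and 1000001. The submitters' processing notes name cutadapt 3.4, Salmon 1.6.0, GATK and the build TAIR10, without their roles. The annotation and the summing to genes are not given in the sources used here. RefSeq TAIR10.1 supplied names, positions and sequences. Differences between the parental alleles and the reference were not examined, and their part in the TPM values was not tested.

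TPM was analysed as log2(TPM + 1). The filter was a mean of 1 TPM or more in the 130 RIL libraries, and tests used limma 3.58.1 in R 4.3.3 (eBayes with trend, Benjamini-Hochberg over 18111 genes). Dark and light libraries of a line are paired because the labels give both the same inbred line. The letters WT with a number were read as RILs. No 2 libraries were identical.

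Named genes were all 9 members, in each autophagy list the tested gene with the largest absolute change and any past both thresholds, and 3 genes of most like pattern. ATG7 and the single lines described were picked after their values were seen. So were the further autophagy genes named beside Tnz-1 in the dark or for the fit with the line as a block. Members and lists were chosen with earlier results of these data known. On simulated data with 200 changed genes of 18111, the light test recovered 197 with 18 false calls, the line test 200 with 10, the spread test 189 with 3 and the range test 146 with 11. The planted effects were larger than those of any ATG8 member tested, and the noise was drawn independently for each library. These counts therefore do not show what is recovered at the sizes reported here. Alternatives were a pseudocount of 0.1, no filter on low values, median-of-ratios scaling, the line as a block and the range of line number. Leaving out lines 40 to 57, and the range test, were added after seeing the data.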

Additional observations from a re-analysis of the deposited data

Results flagged for a closer look

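The parents moved in opposite directions for 4 members, with 1 library each per condition, and the difference was not tested. The log2 changes in light were 0.20 in Tnz-1 and -0.73 in Ws-2 for ATG8E, 0.17 and -0.43 for ATG8F, 0.16 and -0.036 for ATG8I, and 1.11 and -1.29 for ATG8C, whose levels were near 0.

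The mean light change also differed between ranges of line number by limma's F-test in 4 members. For lines 1 to 19, 21 to 39, 40 to 57 and 58 to 78 in that order, the log2 changes were -1.28, -0.82, -0.38 and -0.73 for ATG8E, -0.57, -0.083, 0.027 and -0.19 for ATG8F, 0.25, 0.48, 0.67 and 0.37 for ATG8H, and -0.18, 0.17, 0.14 and 0.056 for ATG8A.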

How the results depend on the processing

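The calls of ATG8E, ATG8F, ATG8G and ATG8H in the light response were the same in all 6 alternatives. With the line as a replicate block 4 of 8 members passed, as without it, and no ATG8 call changed. Median-of-ratios scaling gave 5 of 8, with ATG8I added, and no filter on low values 5 of 9, with ATG8C added. Changes near 0 turned sign without a call: ATG8B to -0.026 with scaling and -0.013 without lines 40 to 57, ATG8D to 0.065 without lines 40 to 57, the difference of ATG8G over ATG8C in light change to -0.10 with a pseudocount of 0.1, and with scaling the parental changes of ATG8D in Tnz-1 to 0.047 and of ATG8G in Ws-2 to -0.062.

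The line effect passed in 3 of 8 members with scaling and in 3 within ranges of line number, against 5, while over all 18111 genes it passed in 14510 and 14327, against 15188. More spread in the light passed in 1 of 8 with scaling, 1 without lines 40 to 57 and 0 within ranges, against 2. The differences in spread of ATG8G turned to 0.00042 and of ATG8H to -0.0035 with scaling, and that of ATG8G to 0.0098 without lines 40 to 57. Over all genes, 324 passed the spread test, against 525 of 24228 without the filter, 1262 with the line as a replicate block, 124 within ranges and 73 without lines 40 to 57. The cause was not tested.

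Read depth is unknown, so ATG8C, listed at 0 in 19 of 130 RIL libraries, may be below detection there, and no interval from counts can be given.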
